A study of Homo sapiens with 28 samples.

Results

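The HOX genes of the 4 human clusters were followed in lists of broad peaks from ChIP-seq of U2OS cells, a human osteosarcoma line. The members were the 38 HOX genes of a fixed list, out of 19970 protein-coding genes of GENCODE release 44. They were chosen by name and place, not by a measured value, but with earlier results of these data known. Each gene was taken with 5 kb on either side, and the windows of neighbours were joined into the clusters HOXA (chr7:27095354-27205091, 10 members), HOXB (chr17:48523526-48733750, 10 members), HOXC (chr12:53933831-54061030, 9 members) and HOXD (chr2:176087721-176195907, 9 members) of hg38. Each cluster was set against the 500 kb on each side. Windows of neighbouring members share bases, so the 38 genes are not independent measurements.

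There were 10 lists. H3K36me2 was measured in wild-type cells, with 2 lists without UV and 2 lists from cells taken 3 h after 20 J/m2 of UV-C. The Flag-tagged C-terminal domain of ASH1L, called CTD below, was measured in ASH1L-/- cells transfected with it, with 3 lists without UV and 3 lists at 3 h. ASH1L is a histone methyltransferase whose CTD includes the catalytic SET domain. Some limits come with these cells. The ASH1L-/- line was made with CRISPR/Cas9 and grown from a single colony, and both CTD conditions carry this deletion. The CTD was a transfected fragment driven by a CMV promoter, not the endogenous full-length protein. The CTD lists were called against ChIP from the same ASH1L-/- cells with empty vector, and the H3K36me2 lists against input chromatin, so levels of the assays are not on a common scale. DNA of both UV conditions was treated with repair enzymes before the libraries were made.

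HOX genes encode homeodomain transcription factors that give cells their position along the body axis. They lie in order: within a cluster the low-numbered paralogue groups sit at the 3′ end and act in anterior structures, and the high-numbered groups sit at the 5′ end and act in posterior structures and distal limbs. Their state in differentiated cells is held by Polycomb proteins, which deposit H3K27me3, and by Trithorax proteins such as MLL and ASH1L. ASH1L deposits H3K36me2, a mark that counters Polycomb methylation and that also spreads through intergenic and genic chromatin through the NSD enzymes. The comparison between UV conditions asks how this mark and the methyltransferase fragment are arranged after DNA damage.

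Each list held 500000 peaks, so a lower density of peak centres in 1 place is matched by a higher density elsewhere. Bases covered are not fixed in this way: the H3K36me2 peaks covered 15.7% and 15.2% of the genome without UV and 13.8% and 14.2% at 3 h, so the percentages of bases covered below include this lower total. The lists carry no read depth, and no counting error could be computed from them. The median fold enrichment of a peak over its control was between 1.72 and 1.89 in the 10 lists, so most calls were weak. In the CTD lists the highest peak inside ASH1L itself had a fold enrichment of 5.87 to 41.2, against 3.22 to 3.67 for the highest peak anywhere else, which checks the transfected construct. Peaks in the H3K36me2 lists moved with base composition: the density in 1-kb bins with at least 55% GC was 1.18 and 1.404 times the genome average without UV and 0.785 and 0.857 times at 3 h. In the CTD lists this ratio was 1.99 in the no UV replicate 1 and 2.12 in the 3 h replicate 3, and between 1.27 and 1.52 in the other lists. The clusters were richer in GC than their flanks, with 52.0% against 39.98% for HOXA, 49.3% against 44.6% for HOXB, 52.5% against 45.9% for HOXC and 50.5% against 39.0% for HOXD.

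H3K36me2 peaks were less dense in the HOX clusters at 3 h after UV than without UV, by more than in the sequence on either side. Over the 4 clusters together, the density of peak centres was 266 and 290 per Mbp in the lists without UV and 185 and 180 per Mbp at 3 h. Both lists at 3 h lay below both lists without UV. The mean was 278.2 ± 16.6 (SD, n = 2) without UV and 182.8 ± 3.82 (SD, n = 2) at 3 h, a difference of -34.3%. In the flanks the means were 230.1 and 224.8 per Mbp, a difference of -2.34%, and the lists of the 2 conditions overlapped. The two-sided exact permutation test gave p = 0.333 for the clusters, which is the smallest value that 2 lists against 2 allow, and p = 0.667 for the flanks. No comparison of these 4 lists can therefore reach 0.05 in this test.

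**Figure D1:**
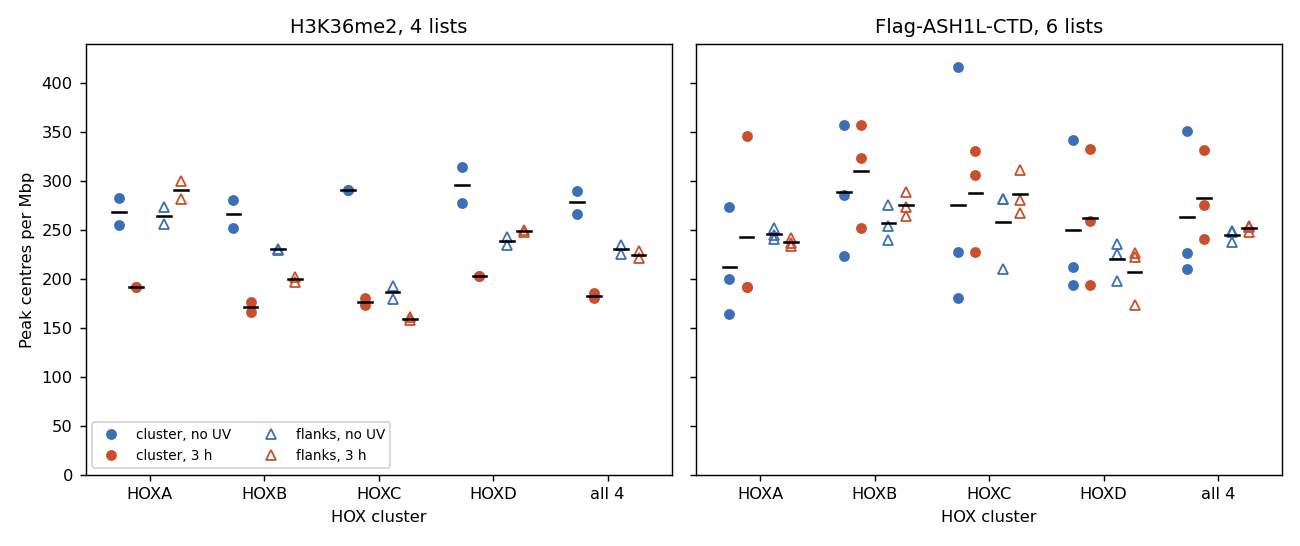
Density of peak centres per Mbp (y axis) in each HOX cluster and in its flanks of 500 kb on each side, with 1 point per list (filled circles for clusters, open triangles for flanks) and black bars at the means, for H3K36me2 and CTD without UV and 3 h after UV. In all 4 clusters both H3K36me2 lists at 3 h sit below both lists without UV, whereas the CTD lists of the 2 conditions overlap.

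Each cluster taken alone showed the same order of the lists. HOXA had 255 and 282 peak centres per Mbp without UV and 191 in each list at 3 h. HOXB had 252 and 281 without UV against 176 and 166 at 3 h. HOXC had 291 in each list without UV against 181 and 173 at 3 h. HOXD had 277 and 314 without UV against 203 in each list at 3 h. The differences of the means were -28.8% in HOXA, -35.7% in HOXB, -39.2% in HOXC and -31.25% in HOXD, and in each cluster the groups did not overlap. The flanks did not move alike: around HOXA and HOXD the difference was 10.0% and 4.18%, and around HOXB and HOXC it was -13.4% and -14.5%.

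Set against its own flanks within each list, the log2 ratio of cluster to flank density was on average 0.27 without UV against -0.30 at 3 h. The difference of -0.57 again had the smallest possible p, 0.333, in the exact permutation test. It was -0.63 in HOXA, -0.43 in HOXB, -0.49 in HOXC and -0.60 in HOXD. Bins of equal GC content gave a smaller difference. With flank bins weighted to the GC content of the clusters it was -0.28, and with bins of the whole genome weighted in the same way it was -0.32. The genome bins of that composition went from 236.5 to 196.2 peak centres per Mbp. Against weighted flank bins the difference was -0.24 in HOXA, -0.43 in HOXB, -0.17 in HOXC and -0.07 in HOXD, where the conditions overlapped (exact permutation test, p = 1). Against weighted genome bins it was -0.16, -0.42, -0.39 and -0.22.

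**Figure D2:**
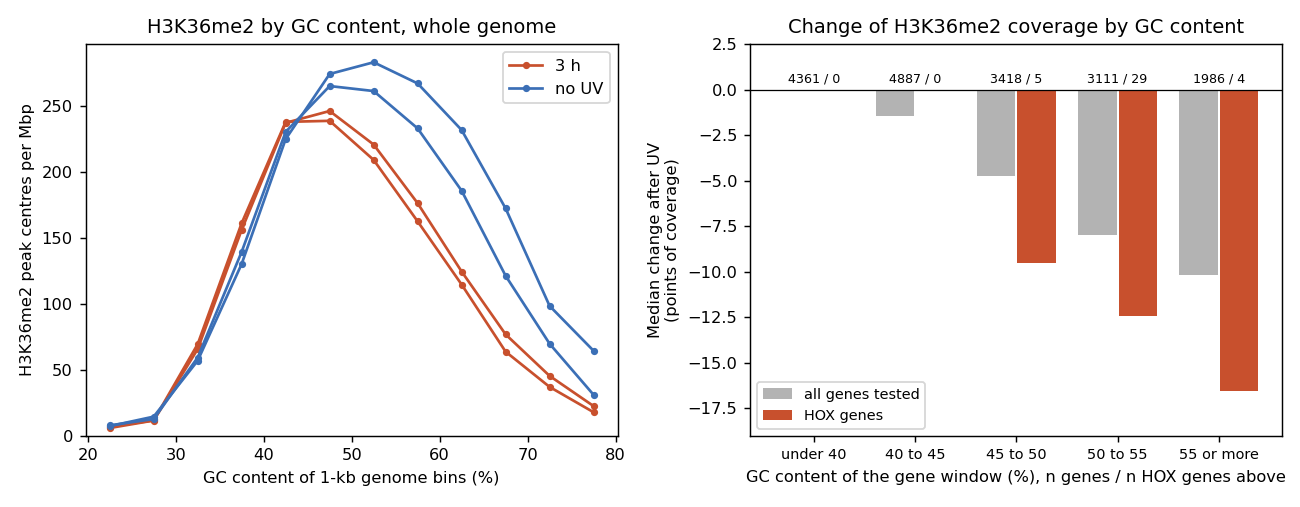
Left, H3K36me2 peak density (centres per Mbp, y axis) in 1-kb bins of the genome by GC content (%, x axis), with 1 line per list. Right, median change of H3K36me2 coverage at 3 h against no UV (percentage points, y axis) by GC content of the gene window (x axis), for all genes tested (grey) and for the HOX genes (orange), with numbers of genes above. From 45% GC up, where all HOX windows fall, the lists at 3 h lie below those without UV on the left, and the HOX medians lie below those of all genes on the right.

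The bases under the peaks were counted as well as the centres. In the clusters 28.7% and 30.0% of bases were covered without UV, and 18.7% and 16.9% at 3 h. The difference of the means was -39.3%, against -11.7% in the flanks. Of the cluster bases covered in both lists without UV, 27.9% were covered in neither list at 3 h, compared with 18.7% of such bases in the flanks and 20.3% in the genome. In the other direction, 9.73% of the cluster bases covered in both lists at 3 h were covered in neither list without UV, compared with 13.7% in the flanks and 15.6% in the genome. By cluster this share was 0.364% in HOXA, where 10.02% of the bases were covered in both lists at 3 h, and 7.87% in HOXC. In the flanks of HOXA and HOXC it was 13.02% and 12.5%. In HOXB it was 12.4%, above the 11.9% of its flanks. In HOXD it was 16.5%, near the 17.02% of its flanks and above the 15.6% of the genome. Strong peaks, at a -log10 p of at least 3, numbered 19 and 14 in the clusters without UV and 6 and 7 at 3 h, although their numbers in the whole genome were alike (41849 to 47783 in the 4 lists).

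Over all 4 lists the mean log2 ratio of clusters to flanks was -0.013 (exact sign-flip permutation test, p = 1). HOXC was 0.40 above its flanks on the log2 scale in a test that cannot go below 0.125 (exact permutation p = 0.125, 0.50 after Benjamini-Hochberg adjustment over the 4 clusters), with a mean of 0.64 without UV and 0.15 at 3 h. HOXC stood above HOXA, HOXB and HOXD in 4 of 4 lists, by 0.69, 0.40 and 0.39 on the log2 scale (exact sign-flip permutation test, adjusted p = 0.15 for each over 6 pairs). This order depended on the comparison: with flanks of 250 kb HOXC was at 0.18 and HOXD at 0.34, and against genome bins of equal GC content HOXC was at 0.038, HOXA at 0.18 and HOXD at 0.22.

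**Figure D3:**
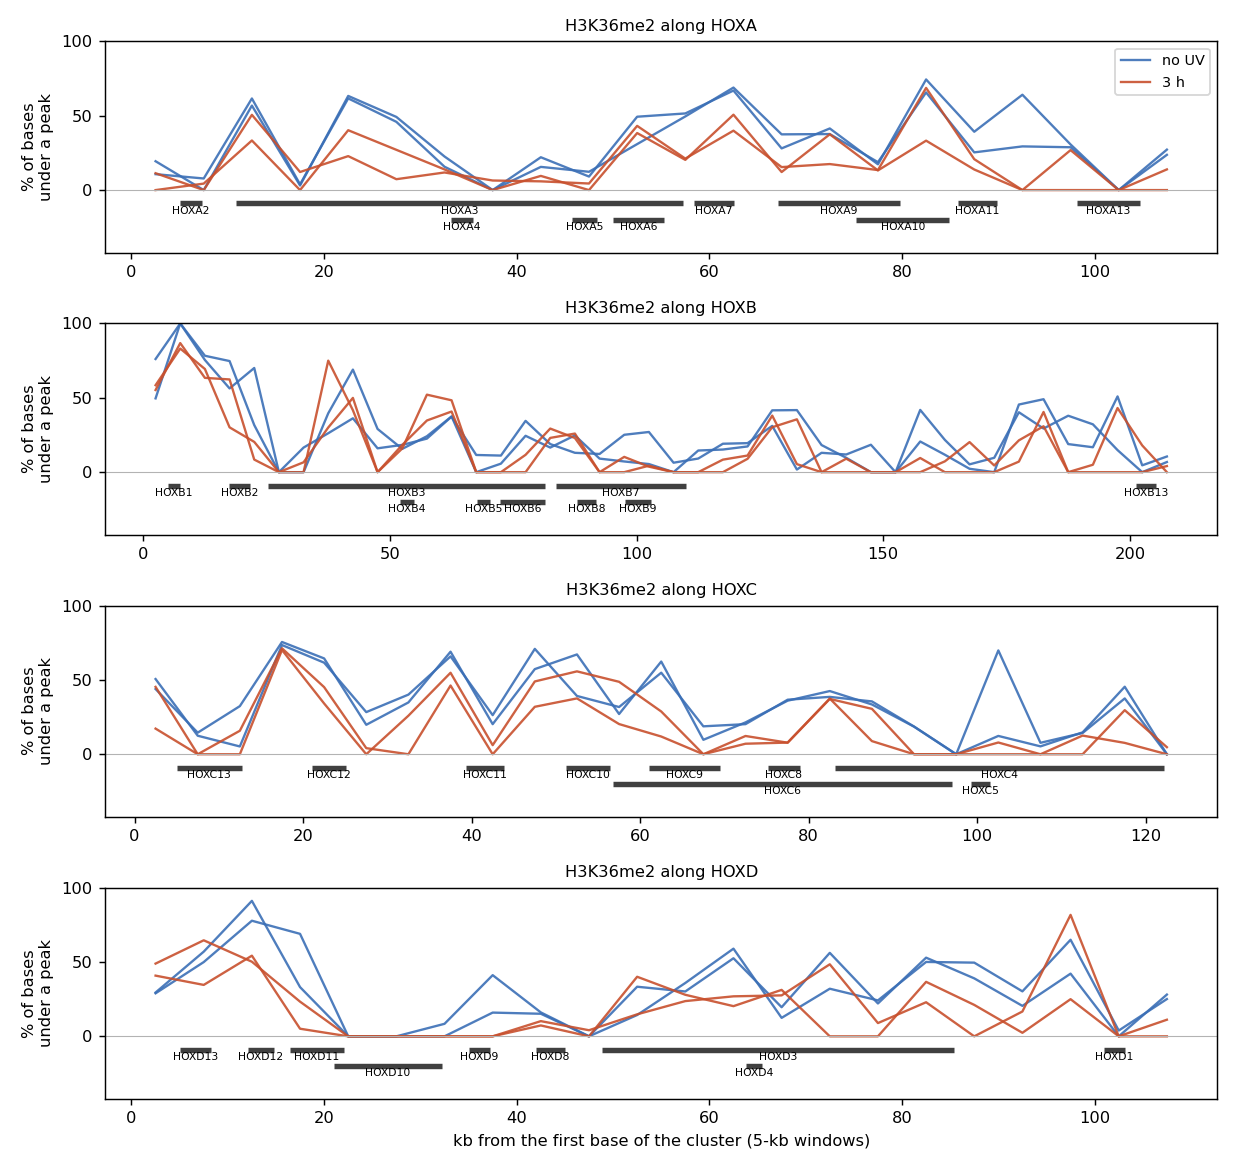
Percent of bases covered by H3K36me2 peaks in successive 5-kb windows (y axis) by distance in kb from the start of each cluster (x axis), with 1 line per list and the members as bars under the axis. Coverage is highest at the HOXB1 end of HOXB, where the 5-kb window around 7.5 kb is covered by 83.1% or more in every list.

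Along the clusters the mark was uneven. In HOXB the window centred 7.5 kb from the cluster start, over HOXB1, was wholly covered in both lists without UV and was covered by 86.8% and 83.1% at 3 h. The window centred at 27.5 kb, over the 3′ end of HOXB3, held no H3K36me2 peak in any list. In HOXD the window centred at 12.5 kb, over HOXD12, was covered by 77.7% and 91.1% without UV and by 50.2% and 54.2% at 3 h. Further along, the windows centred at 22.5 and 27.5 kb, over HOXD10 and the last part of HOXD11, were empty in all 4 lists.

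The places where H3K36me2 was called in every list are shown by their sequence, to let the marked DNA be read beside its values. Peaks of the 4 lists were merged into sites, and a site with a peak in all 4 lists was found at 12 of 34 sites in HOXA, 13 of 76 in HOXB, 13 of 43 in HOXC and 9 of 33 in HOXD. In HOXA, HOXC and HOXD the site with the highest value of its weakest list was taken, and up to 300 bases around the middle of the bases common to the lists are given on the plus strand of hg38, with each CpG in capitals.
HOXA site, chr7:27180714-27181013: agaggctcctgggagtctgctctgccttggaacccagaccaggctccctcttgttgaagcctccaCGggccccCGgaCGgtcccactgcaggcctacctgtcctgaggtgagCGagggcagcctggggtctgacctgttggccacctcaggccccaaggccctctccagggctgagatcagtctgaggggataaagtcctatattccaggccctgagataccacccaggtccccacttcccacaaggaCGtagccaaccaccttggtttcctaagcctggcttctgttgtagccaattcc
HOXC site, chr12:54014969-54015268: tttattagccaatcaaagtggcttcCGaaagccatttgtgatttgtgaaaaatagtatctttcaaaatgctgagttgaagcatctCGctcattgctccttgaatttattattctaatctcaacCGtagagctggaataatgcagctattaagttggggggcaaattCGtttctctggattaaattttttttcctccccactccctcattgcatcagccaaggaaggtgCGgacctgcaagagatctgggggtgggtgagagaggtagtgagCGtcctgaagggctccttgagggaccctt

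The HOXA sequence lies in no annotated gene, at -603 bases from the start of HOXA10, a posterior gene needed for the uterus. It is 61% GC with 5 CpG, and its peaks had a fold enrichment of 1.83 and 1.87 without UV against 1.84 and 1.81 at 3 h. The HOXC sequence lies in an intron of HOXC6, at -1812 bases from a start of HOXC4. It has 6 CpG, and the values were 2.204 and 2.71 without UV against 2.26 and 2.26 at 3 h. The corresponding HOXD site, chr2:176097268-176103548, spans HOXD12 with its exons, and its values were 2.38 and 2.37 without UV against 2.08 and 2.22 at 3 h. Only in HOXD did both values at 3 h lie below both values without UV. The sites were chosen for a peak in every list and for the height of the weakest, so these values are a description. Peak height was not tested.

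The members themselves were compared by the percent of bases under a peak in each gene with its 5 kb on either side. The median over the 38 genes was 29.0% and 30.3% in the lists without UV against 19.4% and 16.9% at 3 h. The mean of the lists at 3 h was below that without UV in 36 of 38 genes, the exceptions being HOXB4 and HOXB13. The median change was -12.9 percentage points, beside -2.54 over the 17763 genes tested. Median coverage by condition went from 30.4% to 18.5% in the members and from 10.7% to 6.23% over all genes tested. As a ratio of these medians over genes the fall was not larger in the members. Counted over bases, the proportional fall was larger in the clusters, from 29.4% to 17.8% covered, against 23.5% to 20.8% in the flanks. Genome bins weighted to the GC content of the clusters went from 25.4% to 18.5%. In 30 of 38 members both lists at 3 h lay below both lists without UV, beside 53.4% of all genes tested. In 0 members did both lists at 3 h lie above, beside 7.31% of all genes. These 30 were 10 of 10 in HOXA, 5 of 10 in HOXB, 8 of 9 in HOXC and 7 of 9 in HOXD.

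**Figure D4:**
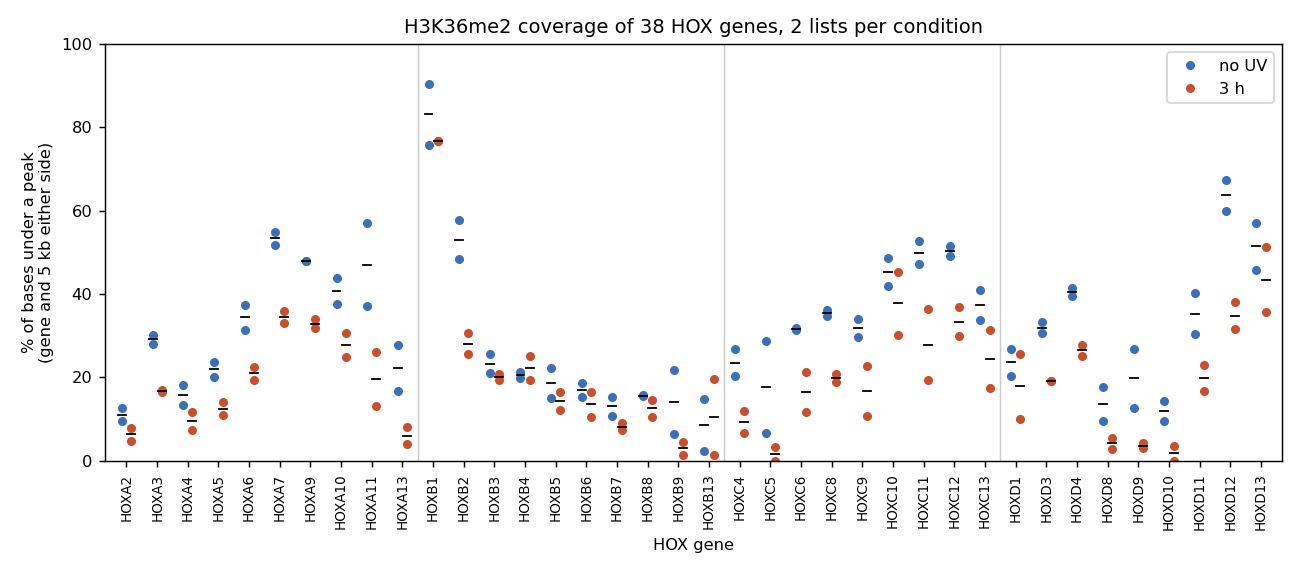
Percent of bases covered by H3K36me2 peaks (y axis) in each of the 38 HOX genes with 5 kb on either side (x axis, by cluster), with 1 point per list and black bars at the means. The points at 3 h lie below those without UV in 30 genes, and HOXB1 is the most covered gene in every list.

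In limma, 4 members fell and 0 rose at an adjusted p under 0.05 (Benjamini-Hochberg over 17763 genes), beside 6.26% of all genes called lower. Without adjustment 22 of 38 members had p under 0.05, beside 5413 of all 17763 genes. Among all genes the share that stood apart lower was larger in windows with more GC. Among the 29 members with 50 to 55% GC the median change was -12.4 points and 22 stood apart lower, beside -7.99 points and 79.9% of all genes in that class. Among the 5 members with 45 to 50% GC the median change was -9.54 points and 4 stood apart lower, beside -4.75 points and 67.8%. Among the 4 members with 55% GC or more it was -16.5 points and 4 stood apart lower, beside -10.2 points and 86.4%. Members were thus called apart about as often as other genes of their GC class, with larger median changes. Median coverage without UV was 30.4% over the members and 10.7% over all genes tested, which are of any GC content. In genome bins weighted to the GC content of the clusters the coverage without UV was 25.4%, beside 29.4% in the clusters. The part of GC content in the change was not tested further.

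HOXC8 (chr12:54008985-54012769, plus strand), a central gene that patterns the thorax, was covered by 36.2% and 34.6% without UV and by 20.8% and 19.0% at 3 h. It fell by 15.6 percentage points (SE 2.42, limma adjusted p = 0.0462). HOXD12 (chr2:176099795-176102489, plus strand), which acts in the digits, was covered by 67.4% and 60.0% without UV and by 38.05% and 31.5% at 3 h. It fell by 28.9 points (SE 4.43, limma adjusted p = 0.0462), the largest difference among the members. Both genes kept coverage at 3 h, and neither had overlapping lists.

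HOXA7 (chr7:27153716-27157936, minus strand), a central gene with a role in the trunk skeleton, was covered by 51.8% and 55% without UV and by 33.0% and 36.1% at 3 h. It fell by 18.9 points (SE 3.17, limma adjusted p = 0.0470). HOXB2 (chr17:48540894-48545109, minus strand), which patterns the hindbrain, was covered by 57.8% and 48.3% without UV and by 30.6% and 25.5% at 3 h. It fell by 25.0 points (SE 4.44, limma adjusted p = 0.0497). These 4 calls lay close to the threshold: in the fit without a filter on genes with few peaks, limma called 0 members and 0 of all genes. The same held with the gene alone and at a -log10 p of 2 or more. It also held after division by the genome-wide percent covered and with a replicate block. Leaving out 1 list is described with the processing.

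The anterior genes (paralogue groups 1 to 3, 7 members) had a median coverage of 29.2% without UV against 19.2% at 3 h. The central genes (groups 4 to 8, 15 members) had 20.6% and 13.6%, and the posterior genes (groups 9 to 13, 16 members) 39.0% and 22.1%. The median change was -6.44, -9.54 and -15.2 points, and 5 of 7, 12 of 15 and 13 of 16 members stood apart lower. No test of the difference between these classes was made.

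Among the anterior genes the ends of the range lay far apart. HOXB1 (chr17:48528526-48531011), a hindbrain gene, was the most covered member, with 75.8% and 90.4% without UV and 76.8% and 76.6% at 3 h. Its lists overlapped and its change was -6.44 points (limma adjusted p = 0.602). HOXA2, which patterns the face and ear, had only 9.45% and 12.6% without UV and 7.93% and 4.74% at 3 h. HOXD1 had 26.9% and 20.4% without UV and 10.1% and 25.6% at 3 h, with lists that overlapped. The 2 lists at 3 h thus differed more in HOXD1 than the conditions did.

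Among the central genes, HOXB4, which acts in blood stem cells, had 19.8% and 21.4% without UV and 19.3% and 25.1% at 3 h. HOXC5, a gene of the neck and trunk, had 6.59% and 28.7% without UV and 3.21% and 0% at 3 h. In HOXC5 the spread between the lists without UV was larger than the difference between conditions, and limma did not call either gene.

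Among the posterior genes, HOXA11, needed for the kidney and forearm, had 37.1% and 57.0% without UV and 26.1% and 13.2% at 3 h. Its change of -27.4 points (SE 8.18, limma adjusted p = 0.107) was close in size to that of HOXD12 but had a wider spread. HOXC11 had 47.1% and 52.8% without UV and 36.4% and 19.4% at 3 h. HOXC12 had 49.2% and 51.6% without UV and 29.9% and 36.8% at 3 h, with a change of -17.0 points (limma adjusted p = 0.0625). HOXA11, HOXC11 and HOXC12 did not overlap between conditions and did not pass the adjusted threshold. HOXC10, a gene of the lower trunk and hindlimb, had 48.6% and 42.0% without UV and 45.4% and 30.3% at 3 h, and its lists overlapped. HOXB9 had 6.42% and 21.8% without UV and 4.60% and 1.43% at 3 h. HOXD10, which acts in limb motor neurons, had the lowest mean over the 4 lists though not the lowest value in every list, with 14.4% and 9.65% without UV and 3.58% and 0% at 3 h. HOXB13, a prostate gene set apart from the rest of HOXB, had 14.8% and 2.44% without UV and 19.6% and 1.47% at 3 h. In HOXB13 the high list and the low list differed within each condition by more than the conditions did.

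By the mean of the 4 lists, HOXB1 (79.9%) came first and HOXD12 (49.2%), HOXD13 (47.4%), HOXA7 (43.95%), HOXC12 (41.9%), HOXC10 (41.6%), HOXB2 (40.5%) and HOXA9 (40.4%) followed. HOXB1 was above every other member in each list, whereas the values of the next 7 genes crossed between lists. The order of the members was alike in the lists, with Pearson r of 0.89 and 0.87 within conditions and 0.81 to 0.88 across them over the 38 genes. These lists share the cells and, within a condition, the pooled input, and the genes share bases, so r is a description.

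A peak within 1 kb of the annotated start was present at 23 and 27 of 38 members without UV and at 18 and 22 at 3 h, beside 37.04% and 39.1% of all 19970 gene starts without UV and 25.8% and 27.1% at 3 h. In the members these counts were 60.5% and 71.1% without UV and 47.4% and 57.9% at 3 h, and in both sets the values at 3 h lay below those without UV. For genes with windows of 50 to 55% GC the shares were 39.7% and 45.8% without UV and 24.1% and 25.7% at 3 h. In all 4 lists 15 members had such a peak (HOXA3, HOXA7, HOXA9, HOXA10, HOXB1, HOXB3, HOXB6, HOXC4, HOXC9, HOXC10, HOXC12, HOXD4, HOXD8, HOXD12 and HOXD13), and 7 had it in none (HOXA5, HOXA13, HOXB7, HOXB9, HOXC13, HOXD1 and HOXD10), beside 15.8% of all gene starts with a peak in all 4 lists and 48.5% with a peak in none. In the RefSeq promoters of 300 bases (GRCh38.p14), 26 distinct starts of 20 members were found, HOXC4 and HOXC5 sharing 1 of them. Most lay in HOXA, where HOXA3 had several, and in HOXD. HOXB1 was the only member found from HOXB, and HOXC4 and HOXC5 were the only members from HOXC. The 26 starts held a median of 22.5 CpG, beside 14 in all 34789 promoters of the same length. Of the 26 starts, 4 lay under a peak in all 4 H3K36me2 lists, beside 6.98% of all promoters, and 13 under a peak in none, beside 71.3%.

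The CTD of ASH1L gave another picture. Over the 4 clusters its density was 351, 227 and 211 peak centres per Mbp without UV against 241, 276 and 331 per Mbp at 3 h. The highest values belonged to the no UV replicate 1 and the 3 h replicate 3, the GC-rich lists named above, so the spread within a condition was larger than the difference between conditions. The mean was 262.9 ± 76.8 (SD, n = 3) without UV and 282.7 ± 45.4 (SD, n = 3) at 3 h, a difference of 7.53% (two-sided exact permutation test, p = 0.7). The log2 ratio of clusters to flanks differed by 0.09 between conditions (exact permutation test, p = 0.7). Over all 6 lists the ratio was 0.11 above the flanks (exact sign-flip permutation test, p = 0.4375), and without the GC-rich lists it was -0.065. Its sign depended on the setting: against flank bins weighted to the GC content of the clusters it was -0.13 (exact permutation p = 0.0625), and with only peaks shared with another replicate it was 0.29 (exact permutation p = 0.03125, the smallest that 6 lists allow).

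The range of CTD density was wide in each cluster. It ran from 164 to 346 per Mbp in HOXA, from 224 to 357 in HOXB, from 181 to 417 in HOXC and from 194 to 342 in HOXD. The ratio to the flanks was higher in HOXD than in HOXA in 6 of 6 lists, by 0.36 on the log2 scale (exact sign-flip permutation test, p = 0.03125, the smallest value 6 lists can give, and 0.1875 after adjustment over 6 pairs). This order depended on GC content: against flank bins weighted to the clusters the means were -0.37 in HOXA and -0.20 in HOXD. There HOXD lay below HOXA in the no UV replicate 3 (-0.42 against -0.23) and the 3 h replicate 1 (-0.92 against -0.39), and above it in the other lists. Between the assays, the log2 ratio of clusters to flanks for H3K36me2 minus that for CTD was -0.12, less than the spread between lists (exact permutation test over 4 and 6 lists, p = 0.552). The value was 0.39 in HOXC (exact permutation p = 0.0952) and, for bases covered, -0.33 in HOXB (exact permutation p = 0.00952, not adjusted over the clusters). Few CTD peaks reached a -log10 p of 3: 0 or 1 in the clusters in each list, and 561 to 1057 of the 500000 in the whole list.

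**Figure D5:**
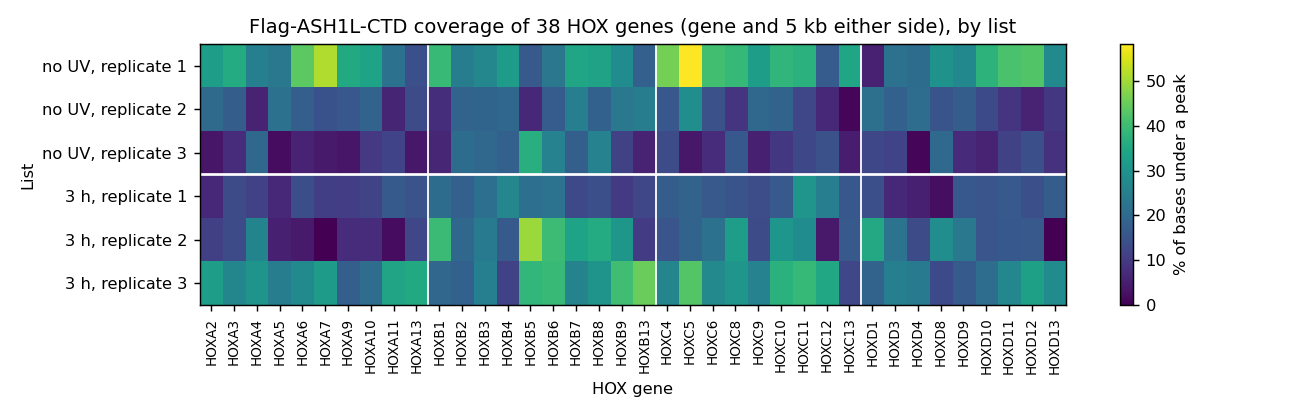
Heat map of the percent of bases covered by CTD peaks (colour) in each of the 38 HOX genes with 5 kb on either side (x axis, by cluster) in each of the 6 lists (rows, no UV above the white line and 3 h below it). The no UV replicate 1 and the 3 h replicate 3 are brighter than the other rows, with medians of 32.5% and 27.2% against 10.4% to 17.01%.

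In the members the median CTD coverage was 20.4% without UV and 19.7% at 3 h. Limma called 0 of 38 members (Benjamini-Hochberg over 19352 genes, lowest adjusted p among members 0.9997), and 0 had an unadjusted p under 0.05. The background is also 0% of all genes called, with 685 of 19352 at an unadjusted p under 0.05. In 0 members did the 3 lists at 3 h lie wholly below those without UV, beside 2.21% of all genes, or wholly above, beside 5.38%. The lists did not rank the members alike, with Pearson r of -0.26 to 0.22 within conditions over the 38 genes, against 0.89 and 0.87 for H3K36me2. Over all genes r within conditions was higher for CTD, at 0.19 to 0.53, and was 0.92 and 0.93 for H3K36me2. Across conditions r over the members ran from -0.27 to 0.65, the highest value being that of the no UV replicate 3 with the 3 h replicate 2.

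Single members show how far the CTD lists differed. HOXC5 had the highest mean, 28.4%, and was covered by 58.3%, 28.5% and 3.85% without UV and by 18.6%, 18.7% and 42.6% at 3 h. HOXB5, which acts in the gut's nervous system, had the largest positive change, 16.6 points, with 16.4%, 6.75% and 36.5% without UV and 21.2%, 49.6% and 38.7% at 3 h. HOXA7, called lower for H3K36me2, had the largest negative change, -9.06 points, with 51.3%, 14.6% and 4.23% without UV and 10.7%, 0% and 32.3% at 3 h. In all 3 genes the lists of the conditions overlapped widely.

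In HOXA the member with the highest mean was HOXA4, with 25.3%, 5.59% and 19.8% without UV against 11.5%, 26.4% and 30.2% at 3 h. The lowest was HOXA5, a lung gene, with 23.3%, 21.9% and 1.99% without UV and 6.41%, 5.11% and 24.5% at 3 h. HOXA13, which acts in the hands, feet and genital tract, had the largest positive change of its cluster, with 14.3%, 13.4% and 3.73% without UV and 14.9%, 12.5% and 35.4% at 3 h. Its value in the 3 h replicate 3, a GC-rich list, was far above its values in the other lists.

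In HOXB the lowest mean was that of HOXB13, with 18.0%, 24.4% and 5.50% without UV and 12.3%, 10.1% and 44.96% at 3 h. HOXB4 had the largest negative change, -4.86 points, with 32.3%, 19.4% and 17.9% without UV and 27.0%, 16.5% and 11.5% at 3 h. Without the GC-rich lists the change in HOXB4 was 3.11 points. In HOXC, HOXC13, a hair gene, had the lowest mean, with 34.5%, 1.04% and 4.49% without UV and 15.7%, 16.3% and 12.3% at 3 h. HOXC11 had 37.3%, 12.4% and 12.7% without UV and 30.4%, 28.3% and 39.1% at 3 h. HOXC4 had 46.2%, 15.9% and 13.4% without UV and 17.1%, 15.4% and 26.6% at 3 h. In HOXC13 and HOXC4 the no UV replicate 1 alone was far above the other lists.

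In HOXD, HOXD12 had the highest mean, with 42.4%, 5.81% and 14.2% without UV and 14.2%, 16.3% and 33.2% at 3 h, so the gene with the largest H3K36me2 difference had overlapping CTD lists. HOXD4 had the lowest, with 20.6%, 20.9% and 1.10% without UV and 5.04%, 13.3% and 23.8% at 3 h. HOXD1 had 5.31%, 21.4% and 12.7% without UV and 14.3%, 35.1% and 18.6% at 3 h. HOXD8 had 29.6%, 15.2% and 19.9% without UV and 2.09%, 28.5% and 13.1% at 3 h. None of these 4 genes separated the conditions.

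A CTD peak within 1 kb of the start was present at 32, 25 and 28 of 38 members without UV and at 18, 20 and 27 at 3 h. These were 84.2%, 65.8% and 73.7% of the members, beside 61.2%, 53.7% and 48.002% of all gene starts, and then 47.4%, 52.6% and 71.1%, beside 50.4%, 53.9% and 66.8%. Only HOXB5 and HOXC5 had such a peak in all 6 lists, and no member lacked it in all, beside 5.48% and 6.83% of all gene starts. Of the CTD sites in the clusters, 1 of 56 in HOXA, 8 of 108 in HOXB, 4 of 70 in HOXC and 1 of 59 in HOXD had a peak in all 6 lists. No base of the clusters was covered in all 6 lists, and 30.0% of bases were covered in none, beside 0.0183% and 39.9% of the bases in the flanks. The only sites of HOXA and HOXD with a peak in all 6 lists are printed because they differ in composition, again on the plus strand of hg38 with each CpG in capitals.
HOXA CTD site, chr7:27115643-27115840: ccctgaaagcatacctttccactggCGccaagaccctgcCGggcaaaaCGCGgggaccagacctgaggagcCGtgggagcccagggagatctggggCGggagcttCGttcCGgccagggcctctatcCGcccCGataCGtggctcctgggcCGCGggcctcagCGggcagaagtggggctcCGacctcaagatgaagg
HOXD CTD site, chr2:176171080-176171367: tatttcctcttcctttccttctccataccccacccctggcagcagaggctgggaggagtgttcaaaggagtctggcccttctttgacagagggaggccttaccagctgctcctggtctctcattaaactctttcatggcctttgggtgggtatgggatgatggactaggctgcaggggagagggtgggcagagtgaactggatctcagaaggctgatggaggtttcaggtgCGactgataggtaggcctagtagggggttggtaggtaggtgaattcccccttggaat

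The HOXA sequence, 198 bases, lies in an exon of the long noncoding RNA HOXA-AS2 and in an intron of HOXA3. It is 67.7% GC with 15 CpG, and it was covered in 4 of the 6 lists. Over the whole merged site of 2853 bases the highest fold enrichment was 1.69, 1.78 and 1.70 without UV against 1.97, 1.73 and 1.81 at 3 h. The HOXD sequence, 288 bases, lies in introns of HOXD3 and of the antisense RNA HAGLR. It has 1 CpG and was covered in 5 of the 6 lists, and the values over its merged site of 2545 bases were 1.64, 1.86 and 1.73 without UV against 1.71, 1.69 and 1.75 at 3 h. In HOXB and HOXC, where several sites had a peak in all 6 lists, the site with the highest value of its weakest list was taken. The site of HOXB (chr17:48667168-48667322) lies in an intron of LINC02086, far from any member's start, and that of HOXC (chr12:53982048-53982347) in an exon of HOXC-AS3, at -2867 bases from the start of HOXC10. Over these merged sites the values were 1.84, 2.19 and 1.77 without UV and 1.79, 1.75 and 1.90 at 3 h in HOXB, and 2.04, 1.79 and 2.01 without UV and 2.21, 1.76 and 1.86 at 3 h in HOXC. All 4 sites had low enrichment in every list, and the values of the conditions overlapped at each.

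The bases under the mark and under the fragment were also compared. Of the cluster bases under H3K36me2 in both lists without UV, 10.3% lay under CTD peaks in at least 2 of the 3 lists without UV, beside 9.22% of all cluster bases. Of the bases under CTD peaks in at least 2 of those 3 lists, 21.4% lay under H3K36me2 in both lists, beside 19.1% of all cluster bases. Over the 4 clusters together each share was thus near that of all cluster bases. The gap was wider in HOXA, with 7.61% beside 5.28% and 33.9% beside 23.5%, and in HOXD, with 8.07% beside 6.29% and 26.3% beside 20.5%. In HOXB and HOXC the shares lay closer to their base rates. In the flanks of the 4 clusters together the corresponding shares were 11.8%, beside 7.47% of all flank bases, and 23.6%, beside 14.9%. They lay further above their base rates than in the clusters, a difference that was not tested. The assays used different cells, antibodies and controls.

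Other genes tied to HOX function were read in the same fit, and the shares of all genes tested given above are the comparison for them. TALE homeodomain proteins are the DNA-binding partners of HOX proteins. Of the 9 TALE genes (PBX, MEIS and PKNOX), 7 stood apart lower in H3K36me2 and limma called 0, with a median change of -2.48 points. Of the regulators of HOX chromatin (Trithorax, Polycomb and related genes), 14 of 16 were tested, 9 stood apart lower and 1 higher, and the median change was -4.53 points. Limma called MEN1 and CBX7 lower (adjusted p = 0.0462 for each). MEN1 encodes menin, a partner of MLL at HOX genes, and CBX7 a Polycomb subunit. MEN1 was covered by 13.3% and 10.99% without UV and by 1.08% and 0% at 3 h, and CBX7 by 16.2% and 15.6% without UV and by 1.87% and 0.67% at 3 h.

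Of the 8 ParaHox and EVX genes, the nearest relatives of HOX genes, 7 were tested, 5 stood apart lower and limma called CDX1 (adjusted p = 0.0462), with a median change of -6.27 points. CDX1, a gut and axial gene, was covered by 39.1% and 39.5% without UV and by 18.0% and 22.9% at 3 h. Of 14 DLX, IRX and EN genes, homeobox genes outside the clusters, 12 were tested and 12 stood apart lower, with a median change of -18.2 points. Limma called DLX1 (adjusted p = 0.0462), IRX4 (adjusted p = 0.0462) and EN1 (adjusted p = 0.0486) lower. These lists also differed in GC content, with a median of 47.4% for the TALE genes, 46.8% for the regulators, 51.2% for the ParaHox and EVX genes and 55.1% for the DLX, IRX and EN genes. Among all genes 67.8% stood apart lower at 45 to 50% GC, 79.9% at 50 to 55% and 86.4% at 55% or more, so the counts of the 4 lists lay near those of their GC class. The 6 calls among these lists share the limits of the HOX calls: limma called 0 of all genes in the fits named there. For CTD limma called none of these genes, and the median changes of the 4 lists were -0.22, 0.72, -1.17 and -3.25 points.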

How the data were processed

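Broad peaks of H3K36me2 (wild-type U2OS, 2 lists per condition) and of the CTD (ASH1L-/- U2OS, 3 lists per condition) were taken as deposited. Per the submitters' notes and the study's methods, the authors trimmed reads (Trim Galore 0.6.5), aligned them with BWA 0.7.17-r1188 to hg38, leaving out chromosome Y, removed low-quality, duplicate and blacklisted alignments (bedtools 2.29.2, Picard, SAMtools 1.7) and called broad peaks in each replicate (MACS2 2.2.7.1). Single-end and paired-end H3K36me2 reads were pooled before calling. Inputs were pooled over duplicates, and empty-vector controls were pooled at 3 h but not without UV. Where the lists of a condition share a pooled control, their spread leaves out variation between controls, also in the UV comparisons. Each deposited peak carries a fold enrichment, the ratio of ChIP to control from the authors' calling, and its p and q as -log10 values from the same step. The -log10 q values were not used here, and the -log10 p-values of the authors served as filters. Read depth is not in the lists, so precision rests on the spread between replicates, which the labels call biological.

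Samples were grouped by their titles. The 38 members and the other gene lists were chosen with earlier results of these data known. Peak centres per Mbp and percent of bases covered were computed for clusters and flanks and compared by two-sided exact permutation tests. Percent covered in each gene with 5 kb on either side was tested with limma 3.58.1 (trend) over all protein-coding genes with a peak in at least 2 lists, at an adjusted p of 0.05. Genes named with all values were those with the highest and lowest mean, with the largest change in each direction in each cluster and assay, and those called. MEN1, CBX7, CDX1, DLX1, IRX4 and EN1 are named because limma called them in their lists. The sites were those with a peak in most lists, ties broken by the weakest list, and the H3K36me2 site of HOXB is not reported here. GC content was read from the reference, and sequences came from the hg38 genome. The replicate number was not used as a block in the main tests, since the study's methods describe none, and a block was run as an alternative. Deviations of same-numbered lists from their condition means correlated at 0.0097 for H3K36me2 and at -0.27, 0.11 and -0.43 for CTD. With 2 lists per condition the deviations mirror each other, so the H3K36me2 value says little about pairing. The functions were tested on simulated data. Software was Python 3.11.15, NumPy 2.4.6, SciPy 1.17.1, pandas 2.3.3, matplotlib 3.10.9 and R 4.3.3.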

Additional observations from a re-analysis of the deposited data

How the results depend on the processing

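Alternatives were a stricter -log10 p, shared peaks only, other flanks and windows, bases covered, no filter, leaving out each list, and, chosen after seeing the data, the union of member windows, genome bins weighted to GC and leaving out the GC-rich CTD lists. The lower H3K36me2 density in the clusters at 3 h kept its direction in 12 of 12 alternatives and its ratio to the flanks in 16 of 16 (-1.24 to -0.28). In single clusters the density kept it in 47 of 48, HOXD at a -log10 p of 3 showing no difference, and the ratio in 63 of 63. These counts include the replicate block, which cannot change a difference of means in this balanced design.

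The limma count of 4 members became 0 with the gene alone, with a -log10 p of 2 or more, without the filter, after division by the genome-wide percent covered and with a replicate block. It ran from 0 to 14 when 1 list was left out: 14 without the no UV replicate 1 and 0 without each of the others. In each of these fits with 0 members limma called 0 of all genes, so the calls of MEN1, CBX7, CDX1, DLX1, IRX4 and EN1 are lost there too, also with the replicate block. In the fit with 14 members it called 3003 of 16661 genes lower. The adjusted p (limma) over 10 alternatives ran from 0.0411 to 0.233 for HOXC8, 0.0345 to 0.342 for HOXD12, 0.0378 to 0.240 for HOXA7 and 0.0378 to 0.233 for HOXB2, with the change below 0 in all 10.

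The mean H3K36me2 ratio of clusters to flanks over all lists had no stable sign. It was -0.27 against weighted flanks (exact permutation p = 0.125, the smallest possible), -0.13 without UV and -0.41 at 3 h, and -0.41 at a -log10 p of 3. It was 0.14 with flanks of 1 Mb, 0.067 against weighted genome bins, 0.048 for bases covered, 0.017 with the union of windows and -0.14 to 0.083 leaving out each list. For HOXB it was 0.37 with 1 Mb, 0.047 with 10 kb either side, 0.016 with the union and -0.10 to 0.072 leaving out each list. For HOXD it was -0.66 against weighted flanks, -0.29 and -0.65 at a -log10 p of 2 and 3, -0.046 with 10 kb and -0.13 to 0.11 leaving out each list. For HOXA it was 0.18 against weighted genome bins. The CTD ratio to flanks was -0.13 against weighted flanks, -0.022 at a -log10 p of 2, 0.29 for shared peaks (exact permutation p = 0.03125), 0.32 for shared peaks overlapping by 50% (p = 0.03125, exact) and -0.065 without the GC-rich lists. H3K36me2 minus CTD was 0.035 with 1 Mb, -0.38 at 50% overlap (exact permutation p = 0.0476) and 0.052 without the GC-rich lists. The UV difference of the CTD ratio was -0.26 at a -log10 p of 2, -0.042 at 50% overlap and -0.039 to 0.31 leaving out each list, and that of the CTD density -6.30 to 63.9 per Mbp.

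Single genes that changed sign for H3K36me2 (percentage points, except after division, where values are multiples of the genome-wide share) were HOXA4 (0.64 at a -log10 p of 2), HOXA6 (0.61 without flanks), HOXB1 (0.087 after division, -13.7 to 0.857 leaving out lists), HOXB4 (-5.75 without flanks, -8.12 at a -log10 p of 2, -1.29 to 4.54 leaving out lists), HOXB7 (0.87) and HOXB8 (0.31) at a -log10 p of 2, HOXD4 (11.5 without flanks), and, leaving out lists, HOXB13 (-7.14 to 10.97), HOXC10 (-15.0 to 0.12) and HOXD1 (-13.5 to 1.99). For CTD they were HOXB4 (3.11) and HOXC4 (1.65) without the GC-rich lists, HOXD1 (-1.22 at a -log10 p of 2) and, leaving out lists, HOXC4 (-11.3 to 5.10) and HOXA7 (-18.6 to 4.90). The cause of these changes was not tested.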
